A study of Mus musculus with 6 samples.

Results

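The genes of the Kit ligand axis and of the melanocyte lineage were read in keratinocytes from the skin of K15-EGFP transgenic mice. The set holds 8 genes: Kitl, Mitf, Kit, Dct, Tyr, Tyrp1, Ednrb and Edn1. It was made of every probe set of the deposited table whose platform symbol is one of them, which gave 12 probe sets for 8 of the 8251 genes that a single-symbol probe set represents. The genes were chosen by a comparison of the same 6 arrays, in which keratinocyte-made factors were set against melanocyte transcripts. Their own differences between the groups are therefore given as a description, with no test.

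The study has 6 arrays in 2 groups of 3, with 1 array per sample. In the transgene a keratin 15 promoter drives enhanced green fluorescent protein (EGFP), and this promoter is known to be active in the hair follicle bulge, where the follicle stem cells lie. Cells of the EGFP-high group had high EGFP and were positive for α6 integrin, a surface protein of basal keratinocytes that anchors them to the basement membrane. Cells of the EGFP-negative group lacked EGFP and were also α6 integrin positive. Every sample carries the transgene, and the EGFP gate is the only difference that the labels give. The labels name no strain, age or sex and no number of animals behind a sample. Nothing says that the samples of a group came from separate animals or sorts, so the spread between them may be partly technical.

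Melanocytes make pigment and pass it to keratinocytes, and in hairy mouse skin their stem cells live in the follicle bulge and the hair germ beside the follicle stem cells. Kitl encodes Kit ligand, also called stem cell factor, which keratinocytes and dermal cells make and which keeps melanocytes alive through the receptor tyrosine kinase Kit. Mitf encodes the basic helix-loop-helix factor that directs the melanocyte lineage and binds E-box sequences at the genes of the pigment enzymes. Those enzymes are the products of Tyr, Tyrp1 and Dct, which catalyse steps of melanin synthesis. Edn1 encodes endothelin 1, a peptide that keratinocytes can secrete, and Ednrb encodes the endothelin receptor of melanoblasts.

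The promoters of the pigment enzymes show why Mitf and these genes are read side by side. The 250 bases before the start of each gene were taken from RefSeq promoter windows (GRCm38.p6), which held 11 windows for the 8 genes, with 3 separate starts for Mitf and 2 for Kit. The MITF E-box was searched as CATGTG on both strands. It was present before Tyr, Tyrp1 and Dct and before no other start of the 8 genes. Of all 32851 windows of this length 12.3% hold it. The longer run AGTCATGTG, the start of the M-box of pigment genes, overlaps the E-box and was present before Tyr and Tyrp1, against 0.228% of all windows. A match describes letters and is not a measured site. In the sequences of the pigment enzymes below, read 5′ to 3′ toward the start, capitals mark CATGTG or its reverse complement.
Tyr, chr7:87493513-87493762, minus strand: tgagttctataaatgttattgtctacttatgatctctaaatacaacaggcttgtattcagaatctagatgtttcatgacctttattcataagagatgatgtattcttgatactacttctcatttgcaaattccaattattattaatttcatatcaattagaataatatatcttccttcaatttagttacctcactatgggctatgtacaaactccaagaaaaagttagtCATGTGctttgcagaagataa
Tyrp1, chr4:80833963-80834212, plus strand: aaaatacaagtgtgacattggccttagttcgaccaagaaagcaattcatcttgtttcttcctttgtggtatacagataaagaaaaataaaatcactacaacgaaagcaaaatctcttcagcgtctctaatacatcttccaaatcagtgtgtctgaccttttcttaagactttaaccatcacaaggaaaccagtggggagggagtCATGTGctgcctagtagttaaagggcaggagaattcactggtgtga
Dct, chr14:118052247-118052496, minus strand: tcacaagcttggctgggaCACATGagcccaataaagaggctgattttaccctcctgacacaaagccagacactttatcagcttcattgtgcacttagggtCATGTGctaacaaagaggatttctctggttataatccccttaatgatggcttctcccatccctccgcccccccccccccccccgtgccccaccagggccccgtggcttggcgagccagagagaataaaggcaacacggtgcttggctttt

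The E-box began 21 bases before the start of Tyr and 46 bases before that of Tyrp1. Dct had 1 E-box 150 bases before the start and 1 on the opposite strand 232 bases before it. Kitl and Mitf are shown because they are the members with the largest differences between the groups. The Kitl window was rich in CG pairs, with 23 against a median of 6 over all windows. It held 3 matches to GGGCGG, the GC box of many promoters, which were searched on both strands and of which 2 overlap (32.7% of all windows hold at least 1). Capitals mark them in the Kitl sequence. For Mitf the window of the start farthest downstream is printed, where capitals mark TGACGTCA, the palindromic cAMP response element, which 1.55% of all windows hold.
Kitl, chr10:100015571-100015820, plus strand: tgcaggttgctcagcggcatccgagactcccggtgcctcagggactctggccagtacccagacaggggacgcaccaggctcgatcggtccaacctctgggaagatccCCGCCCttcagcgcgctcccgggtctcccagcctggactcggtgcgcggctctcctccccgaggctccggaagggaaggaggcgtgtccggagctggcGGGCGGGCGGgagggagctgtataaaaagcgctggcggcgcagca
Mitf, chr6:97991533-97991782, plus strand: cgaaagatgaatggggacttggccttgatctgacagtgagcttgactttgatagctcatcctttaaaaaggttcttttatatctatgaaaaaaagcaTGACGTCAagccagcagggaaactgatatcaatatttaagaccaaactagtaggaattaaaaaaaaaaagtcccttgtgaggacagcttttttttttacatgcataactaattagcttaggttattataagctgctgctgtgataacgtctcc

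**Figure D1:**
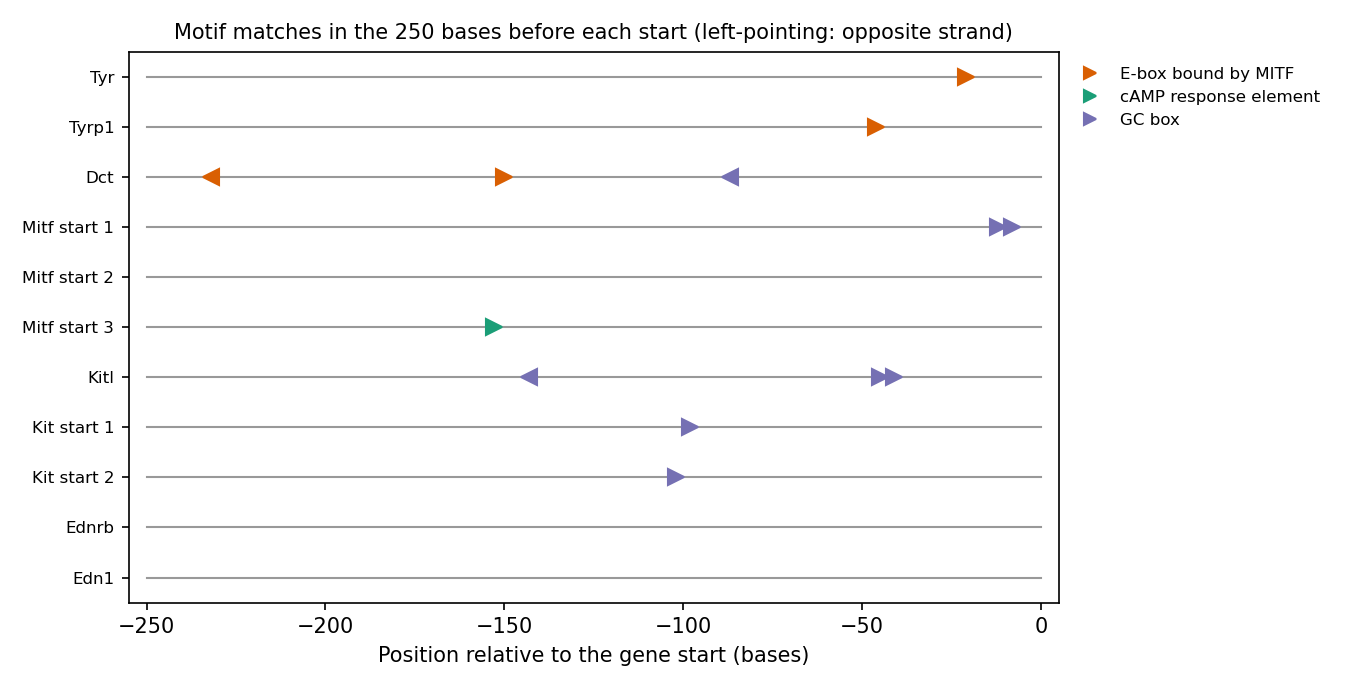
Each line is the 250 bases before a start of a member gene, with the position in bases relative to the start on the x axis, and arrowheads mark the first base of each motif match, left-pointing on the opposite strand. The E-box matches lie before Tyr (21 bases), Tyrp1 (46 bases) and Dct (150 and 232 bases), and the GC box matches before Kitl, Kit, Dct and the first start of Mitf.

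Values are deposited intensities on a linear scale, 1 per probe set and array, with array medians from 69.75 to 76.2. The low end was read from 19 control probe sets for bacterial and yeast transcripts, whose 95th percentile lay between 25.5 and 42.2 on the 6 arrays, and a value above that percentile on its own array is called above the control level here. The bulge marker Cd34, chosen with results of these arrays known and so given as a description, had means of 1456 ± 120 and, for the EGFP-negative arrays, 34.9 ± 5.77 (SD, n = 3 each). Of 12 keratinocyte markers on the array 9 were above the control level on all 6 arrays, Perp, Dsp and Trp63 among them. The summed intensity of the 12 was lower on every EGFP-high array (21520 to 22500) than on any EGFP-negative one (24510 to 30930). In this linear sum the brightest markers weigh most. The median of the 9 tested was a log2 difference of -0.34, from -1.31 for Sfn to 0.1 for Dsp, with Itgb4 (0.08) and Cdh1 (0.06) also above 0. Of these 9, 0 rose and 2 fell, which were Itga6 and Sfn, an epithelial 14-3-3 protein (1931 ± 183 against 4959 ± 1536, adjusted p = 0.0106, limma, lost without EGFP-high replicate 2 or 3, with an adjusted p of up to 0.0531). The part of this difference in the values of the members was not tested. The probe sets of Krt14 and Krt15 were at or below it on all 6 and that of Krt5 was above it on 1 array, so the basal keratins and the gene whose promoter drives EGFP could not check the sort. Of the 7453 tested probe sets, 225 (3.02%) were higher and 162 (2.17%) lower in EGFP-high cells (limma, adjusted p of 0.05). Without EGFP-high replicate 3 these came to 106 and 85, without EGFP-high replicate 2 to 132 and 93, and without EGFP-negative replicate 3 the number lower was 97. With the replicate number as a block they came to 382 and 396.

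Kitl and Mitf were higher in EGFP-high cells, while the probe sets of the pigment enzymes and of the endothelin genes overlapped between the groups. Of the 12 member probe sets 3 had every EGFP-high value above every EGFP-negative value, those of Kitl, Mitf and Kit, and 0 had the reverse. Over all 12422 probe sets of the array 9.97% did not overlap in the first direction and 8.45% in the second, and because the genes were chosen on this contrast nothing is read from the count. The median log2 difference over the 12 was 0.05, beside 0.00 over all tested probe sets. Only 4 of the 12 passed the filter on low values, which were the probe sets of Kitl, Mitf and Dct and 1 of Edn1. All probe sets of Kit, Tyr, Tyrp1 and Ednrb fell below the filter, so 4 of the 8 genes have no place among the tested probe sets.

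**Figure D2:**
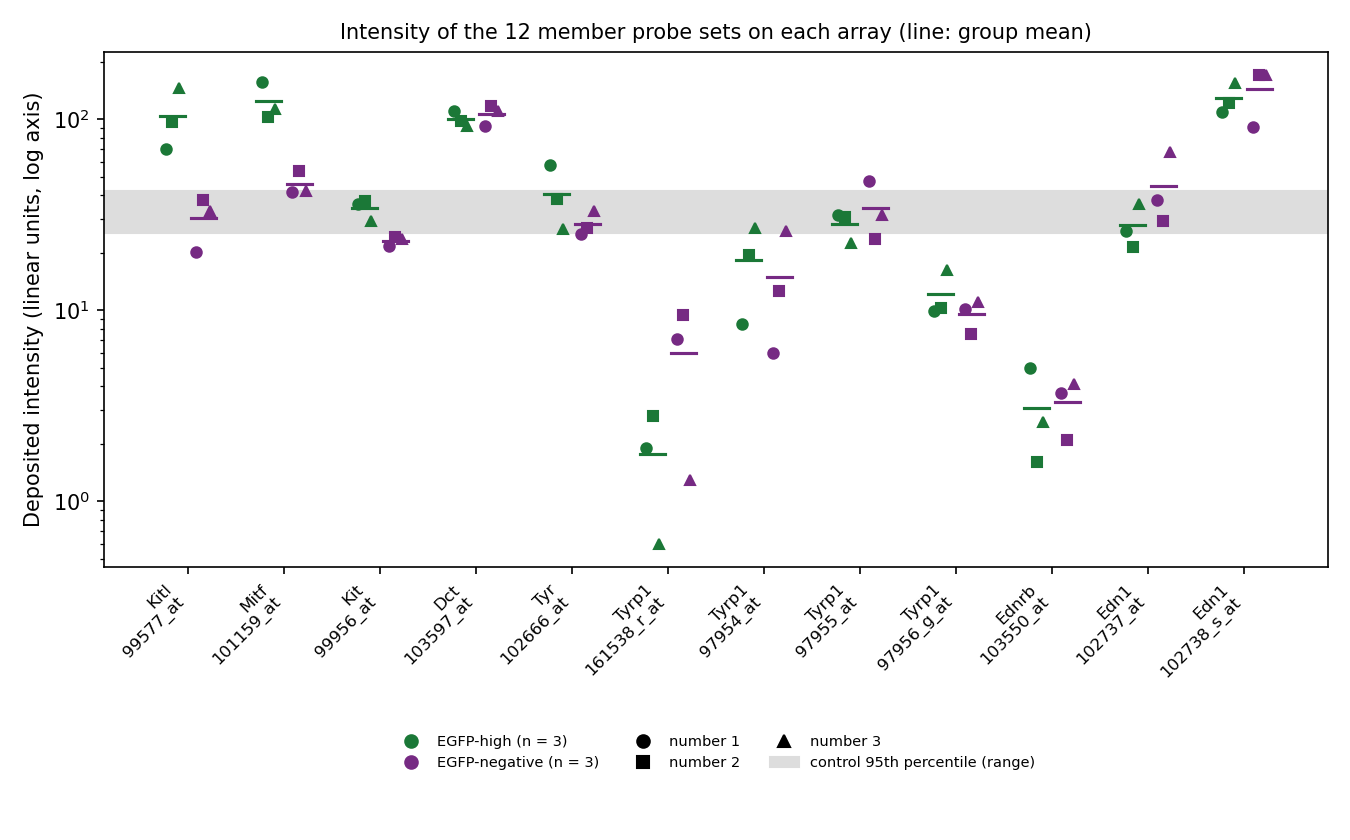
Deposited intensity (log axis) of each member probe set on the 3 EGFP-high and 3 EGFP-negative arrays, with symbols for the replicate number, lines for group means and a grey band for the range of the control 95th percentile over the arrays (25.5 to 42.2). Kitl, Mitf and Kit separate by group, Dct and 1 Edn1 probe set lie above the band in both groups, and Tyrp1 and Ednrb lie within or below it except for 1 Tyrp1 value of 47.4.

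Kitl, the ligand, read 69.8, 96.8 and 146.0 in EGFP-high replicates 1, 2 and 3 and 20.1, 37.7 and 33.1 in EGFP-negative replicates 1, 2 and 3. All EGFP-high values were above the control level, as were EGFP-negative replicates 2 and 3, while EGFP-negative replicate 1 was below it. The lowest EGFP-high value was thus higher than the highest EGFP-negative one. The group means were 104 ± 38.6 and 30.3 ± 9.13 (SD, n = 3 each), a ratio of 3.44. On the scale of log2(intensity + 19.3) the difference was 1.29 ± 0.33 (SD over the 3 replicate numbers), with 1.18, 1.03 and 1.66 within numbers 1, 2 and 3. Because the EGFP-negative values were near the control level the size depended on the constant added, from 0.74 with a constant 4 times as large to 1.61 with a constant 0.25 times as large.

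Mitf, the transcription factor, read 155.6, 103.1 and 113.0 in EGFP-high replicates 1, 2 and 3. In EGFP-negative replicates 1, 2 and 3 it read 41.5, 53.5 and 42.2. Its 6 values were all above the control level, and the groups did not overlap. The means were 124 ± 27.9 and 45.7 ± 6.74, a ratio of 2.71, and the log2 difference was 1.13 ± 0.39, with 1.52, 0.75 and 1.11 within numbers 1, 2 and 3. The number with the largest difference was thus 3 for Kitl and 1 for Mitf. Leaving out any 1 array gave 1.05 to 1.5 for Kitl and 0.97 to 1.23 for Mitf. Mitf has several starts with separate first exons, and the sources used here do not say which of its transcripts the probe set reads.

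Kit, the receptor on melanocytes and mast cells, was low in both groups. It read 36.1, 37.3 and 29.3 in EGFP-high replicates 1, 2 and 3 and 21.6, 24.2 and 23.7 in EGFP-negative replicates 1, 2 and 3. The groups did not overlap, but only EGFP-high replicates 2 and 3 were above the control level of their arrays. The log2 difference was 0.33 ± 0.14 and ran from 0.15 to 0.48 over the constants tried. The receptor's difference was thus smaller than that of its ligand on the same scale, at a level where the control probe sets also lie.

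**Figure D3:**
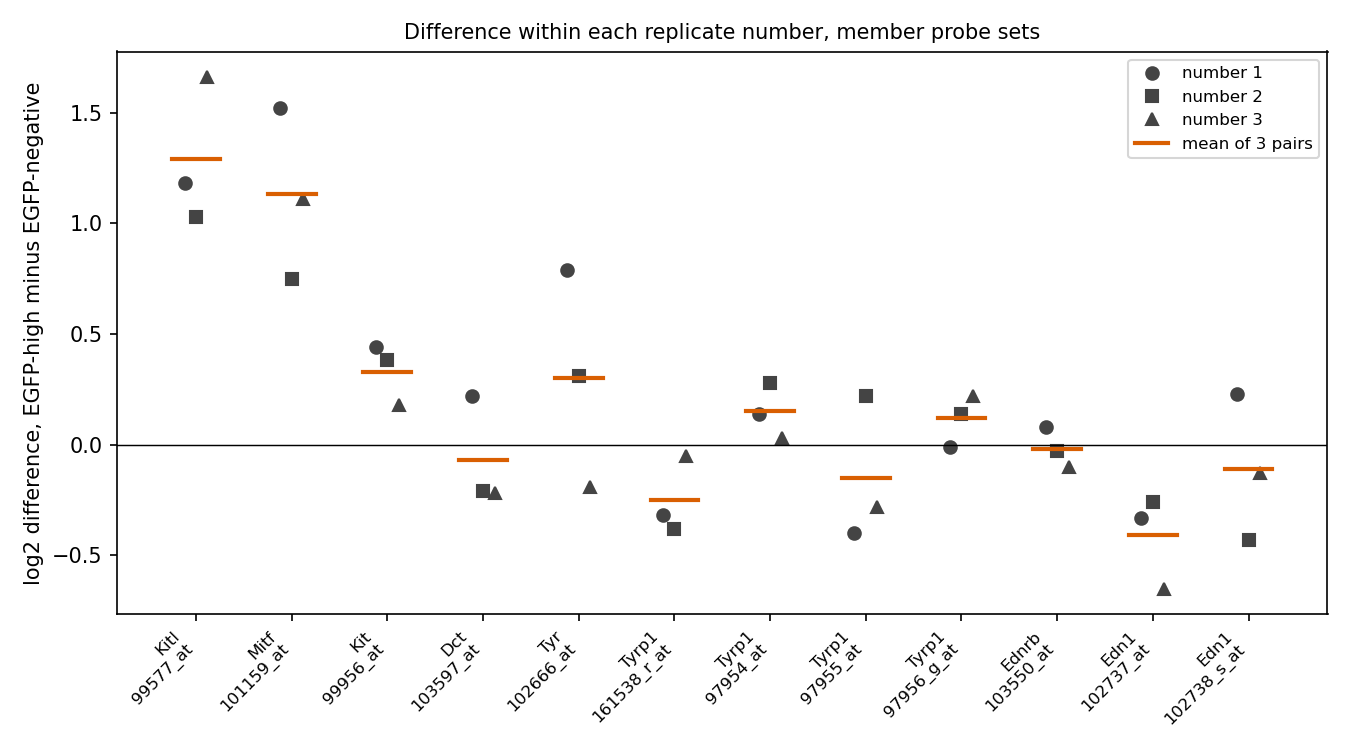
The log2 difference between the EGFP-high and the EGFP-negative array of each replicate number (symbols) and their mean (orange line) for the 12 member probe sets. All 3 numbers are above 0.7 for Kitl and Mitf, from 0.75 to 1.66, and the 3 numbers for Dct, Tyr and the brighter Edn1 probe set fall on both sides of 0.

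The pigment enzymes whose promoters are printed above did not separate by group. Dct, the dopachrome tautomerase, read 110.9, 98.3 and 92.0 in EGFP-high replicates 1, 2 and 3 and 92.5, 116.6 and 109.9 in EGFP-negative replicates 1, 2 and 3. Its log2 difference was -0.07 ± 0.25, and the groups overlapped over nearly their whole range, well above the control level on every array. Tyr, the tyrosinase that starts melanin synthesis, read 57.5, 38.1 and 26.6 in EGFP-high replicates 1, 2 and 3 and 25.2, 26.9 and 32.9 in EGFP-negative replicates 1, 2 and 3. It was above the control level on all 3 EGFP-high arrays but, in the EGFP-negative group, only in replicate 3. The means were 40.7 ± 15.6 and 28.3 ± 4.05, and the groups overlapped. EGFP-high replicate 1, the array with the highest Mitf value, had the highest Tyr value, and without it the log2 difference of Tyr fell from 0.30 to 0.11. Tyrp1, the tyrosinase-related protein, had 4 probe sets, of which 2 were at or below the control level on every array and the other 2 above it on 2 arrays each. Their values ran from 0.6 to 47.4 and their log2 differences from -0.25 to 0.15, with overlapping groups in each.

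The endothelin ligand and receptor overlapped between the groups as well. Edn1 had 2 probe sets. The brighter, whose identifier ends in _s_at and so may also bind similar transcripts, read 109.6, 121.8 and 153.8 in EGFP-high replicates 1, 2 and 3 and 90.9, 170.3 and 169.5 in EGFP-negative replicates 1, 2 and 3. Its log2 difference was -0.11 ± 0.33, and EGFP-negative replicate 1 was the lowest of the 6 arrays. The other had means of 27.9 ± 7.51 and 44.9 ± 20.0, was above the control level on 3 of 6 arrays and had a log2 difference of -0.41 ± 0.21. All 3 replicate numbers were below 0 for this probe set, although the groups overlapped. EGFP-negative replicate 3 was the highest of the 6 arrays at 67.5, and without it the log2 difference was -0.17. Ednrb, the receptor, read between 1.6 and 5.0 on all 6 arrays, below the control level on each.

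Genes beside the members were read from 5 lists on melanosomes, melanocyte regulators, factors that act on melanocytes, the endothelin pathway and Kit signalling. Of 101 genes listed 76 were on the array and 49 were tested, of which 4 were higher and 2 lower in EGFP-high cells at an adjusted p of 0.05 (limma), beside the 3.02% and 2.17% over all tested probe sets. The 6 were Bdnf, Nfib, Pik3r1 and Cd63, which rose, and Itga6 and Bmp4, which fell. The lists were chosen with earlier results of these data known, and the counts are of genes where the shares are of probe sets. Nothing is therefore read from the counts of the lists.

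Among epithelial and dermal factors acting on melanocytes 2 genes of the 8 tested rose and 1 fell, and the median over the 8 was a log2 difference of 0.26. Bdnf, a neurotrophin, read 452.0, 419.9 and 476.3 in EGFP-high against 53.9, 92.4 and 125.9 in EGFP-negative replicates 1, 2 and 3 (log2 difference 2.14, SE 0.24, adjusted p = 0.00147, limma). Nfib, a nuclear factor I protein known to restrain melanocyte stem cells from within follicle stem cells, read 1349.8, 2551.2 and 2088.4 against 554.8, 778.8 and 676.5 (log2 difference 1.51, SE 0.24, adjusted p = 0.00721, limma), and its other probe set had a log2 difference of 1.40. For both genes the groups stood far apart, well above the control level. Bmp4, a signalling ligand, fell from 357 ± 10.1 to 203 ± 16.6 (log2 difference -0.76, SE 0.15, adjusted p = 0.0184, limma). Its other probe set was lower too, at 33.9 ± 18.7 against 280.5 ± 144 (log2 difference -2.45, SE 0.375, adjusted p = 0.00606, limma). The brighter probe set of Bmp4 lost its call without any 1 array other than EGFP-high replicate 1, with an adjusted p of up to 0.091 (limma) without EGFP-high replicate 3. With the replicate number as a block Adam10, a membrane protease, was lower too (118 ± 23.2 against 198 ± 18.9, adjusted p = 0.0379, limma with the block, and 0.0739 without it), and it was likewise lower without EGFP-high replicate 1, where 2 genes of this list were called lower. The other Adam10 probe set overlapped between the groups (90.3 ± 23.8 against 119 ± 12.8, log2 difference -0.36, adjusted p = 0.435, limma). Of the list's other genes, named for their level, Hgf, Fgf2, Csf2, Il1a, Tgfb1 and Mmp9 were at or below the control level on every array.

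**Figure D4:**
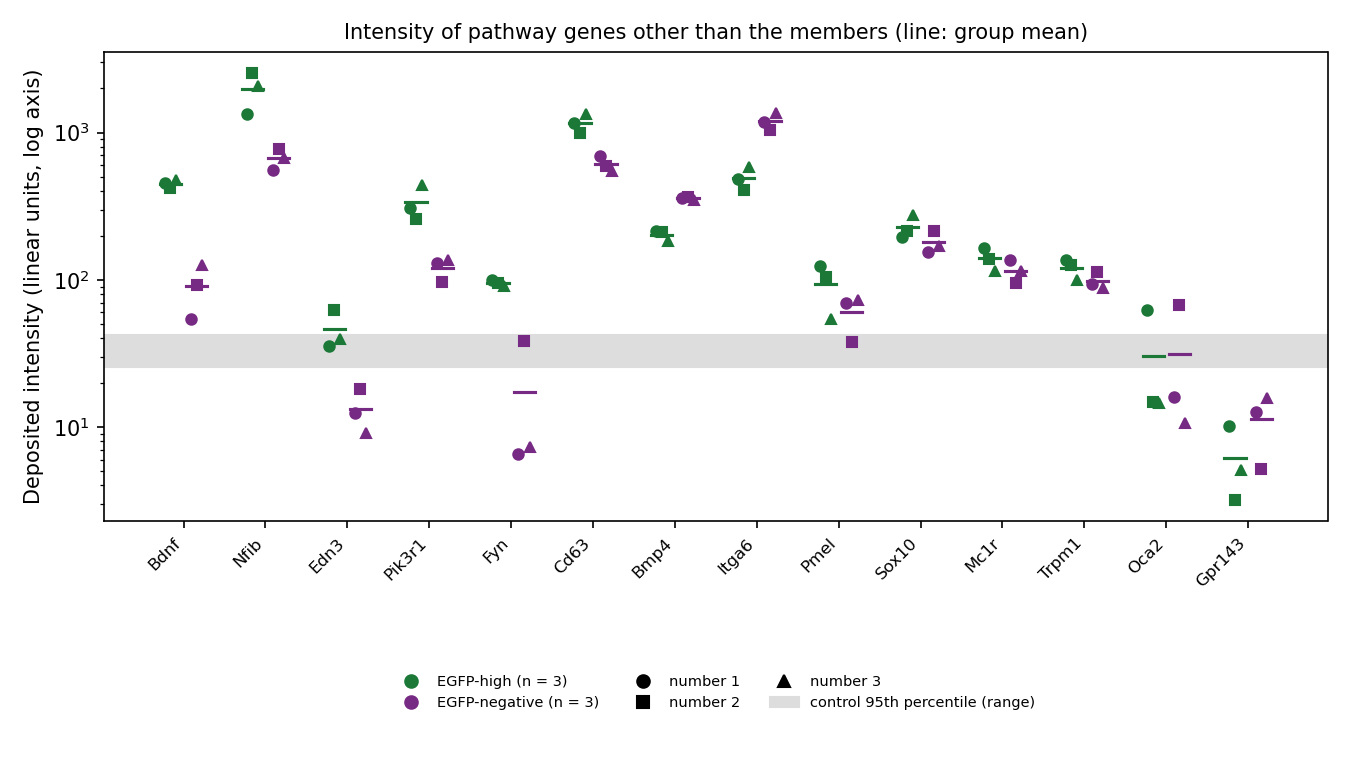
Deposited intensity (log axis) of 14 pathway genes other than the members on the 3 EGFP-high and 3 EGFP-negative arrays, with lines for group means and a grey band for the range of the control 95th percentile. Bdnf, Nfib, Edn3, Pik3r1, Fyn and Cd63 are higher in each EGFP-high array than in any EGFP-negative one, Bmp4 and Itga6 are lower, and the melanocyte genes Pmel, Sox10, Mc1r, Trpm1, Oca2 and Gpr143 overlap.

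The endothelin pathway list had 4 tested genes, of which 0 passed (limma, with 0 also at an unadjusted p below 0.05), and a median log2 difference of -0.02. The brightest were Plcb1, a phospholipase, at 1096 ± 138 against 918 ± 237, the endothelin-converting enzyme Ece1 at 699 ± 268 against 664 ± 132, and Plcb3 at 83.5 ± 11.0 against 91.4 ± 6.01. The other ligands, Edn2 and Edn3, were named after their values were seen. Edn2 overlapped between the groups, with 38.6, 40.2 and 42.4 in EGFP-high and 14.4, 36.0 and 45.6 in EGFP-negative replicates 1, 2 and 3. Edn3 is the ligand that melanoblasts need through Ednrb. It read 35.7, 62.8 and 39.4 in EGFP-high replicates 1, 2 and 3 and 12.4, 18.2 and 9.1 in EGFP-negative replicates 1, 2 and 3, above the control level only in EGFP-high replicates 2 and 3. It fell below the filter on low values, and in the fit without that filter its log2 difference of 0.99 (SE 0.23) had an adjusted p of 0.0773 (limma), which missed the threshold.

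The Kit signalling list had 18 tested genes, of which 1 rose and 0 fell, and a median of -0.06 (log2 difference). Pik3r1, the regulatory subunit of phosphoinositide 3-kinase that binds activated Kit, read 308.2, 258.8 and 441.8 in EGFP-high against 129.6, 97.1 and 136.5 in EGFP-negative replicates 1, 2 and 3 (log2 difference 1.32, SE 0.22, adjusted p = 0.00902, limma). Stat3 read 529 ± 167 against 567 ± 59.5 and Stat5a 376 ± 19.1 against 400.1 ± 59.6. Fyn, a Src-family kinase, was named after its values were seen: it read 99.5, 95.5 and 90.3 against 6.5, 38.4 and 7.3, just below the filter on low values. In the fit without the filter the log2 difference of Fyn was 1.75 with an SE of 0.33 (adjusted p = 0.034, limma). Without EGFP-negative replicate 3 and with the filter kept, Fyn was not called (adjusted p = 0.0585, limma). The fit with no filter, a constant 4 times as large and the fit without EGFP-negative replicate 1 each gave 2 genes higher.

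The melanosome and pigment list had 7 tested genes, of which 1 rose and 0 fell, and a median of 0.20 (log2 difference). Cd63, a tetraspanin of melanosomes and also of lysosomes and exosomes in many cell types, rose from 613 ± 71.1 to 1165 ± 173 (log2 difference 0.90, SE 0.17, adjusted p = 0.0159, limma). Its call was lost without EGFP-high replicate 3, EGFP-negative replicate 2 or EGFP-negative replicate 3, with an adjusted p of up to 0.0823 (limma). Ap3b1 and Ap3d1, subunits of an adaptor that sorts cargo to melanosomes, read 446 ± 43.0 against 384 ± 11.6 and 423 ± 46.8 against 366 ± 35.3. Lyst, below the filter and named after its values were seen, read 58.7, 36.3 and 31.4 against 11.8, 13.6 and 14.8. It was above the control level on the 3 EGFP-high arrays and on 0 EGFP-negative ones. In the fit without the filter its log2 difference of 0.89 (SE 0.22) missed the threshold (adjusted p = 0.0936, limma). The list's other untested genes, Oca2, Gpr143, Mlph and Myo5a, overlapped between the groups. The list of melanocyte regulators and receptors had 12 tested genes, of which 0 rose and 1 fell, and a median of 0.18 (log2 difference). The one that fell was Itga6, the gene of the integrin used in both gates, at 492 ± 90.1 against 1200.0 ± 162 (log2 difference -1.26, SE 0.18, adjusted p = 0.00449, limma). Snai2 read 699 ± 115 against 648 ± 149 and Ptgds 728 ± 35.3 against 582 ± 115.

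**Figure D5:**
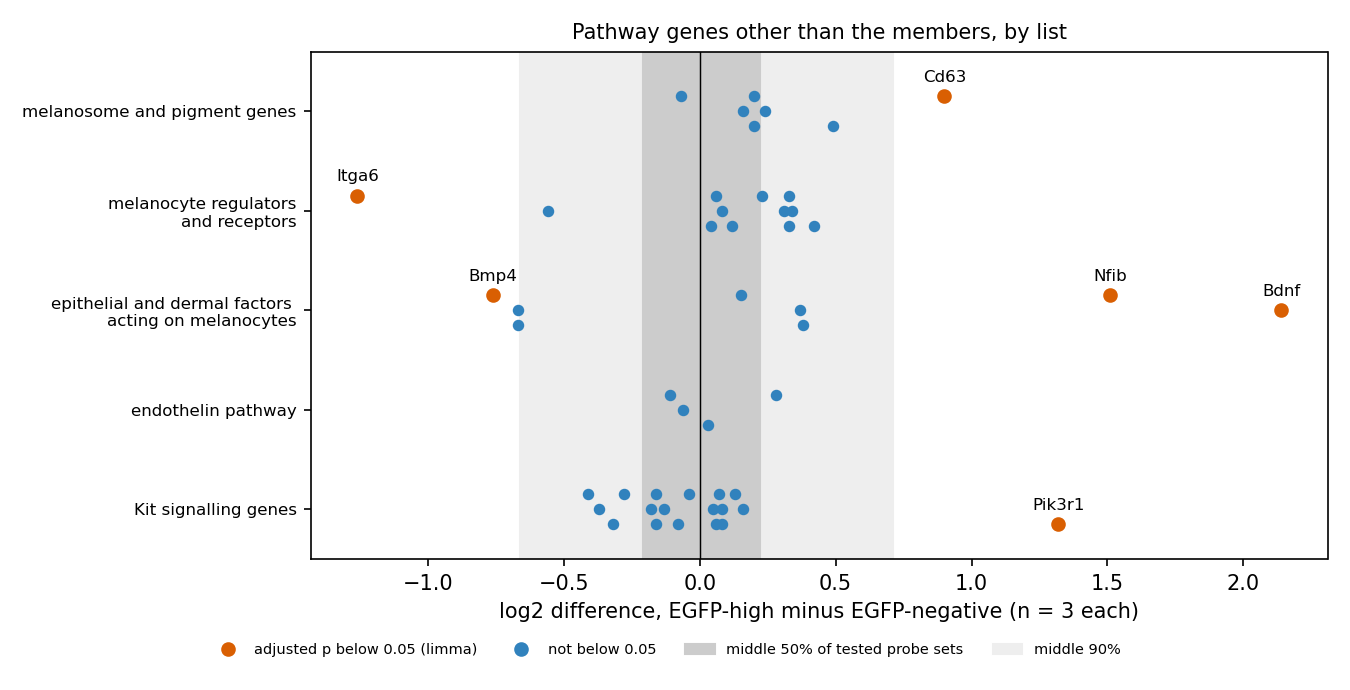
Each point is a tested gene of a list, placed by its log2 difference between EGFP-high and EGFP-negative cells (n = 3 each), orange where the adjusted p is below 0.05 (limma) and blue otherwise, with grey bands for the middle 50% and 90% of all tested probe sets. The called genes are Bdnf (2.14), Nfib (1.51), Pik3r1 (1.32) and Cd63 (0.90) above 0 and Bmp4 (-0.76) and Itga6 (-1.26) below it.

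Markers of cell types that either gate could hold were read beside these results. Of 10 melanocyte markers other than the members 7 were on the array and 4 were tested, of which 0 passed (limma, with 0 at an unadjusted p below 0.05 as well), and their summed intensity was 590 to 727 on EGFP-high and 503 to 564 on EGFP-negative arrays. Pmel, a melanosome matrix protein, read 94.2 ± 36.0 against 60.3 ± 19.5, and Sox10, a neural crest factor, 229 ± 42.0 against 180 ± 31.3. Mc1r, the melanocortin receptor, read 140 ± 25.2 against 116 ± 20.2, and Trpm1, a melanocyte channel, 120.2 ± 19.2 against 98.3 ± 13.5. Oca2 was above the control level on 2 arrays, 1 in each group, and Gpr143, a melanosome receptor, on none. The summed melanocyte markers were thus higher on every EGFP-high array than on any EGFP-negative one, although each of the 7 overlapped between the groups. Of single probe sets over the array 9.97% were higher in this way. Gpr143 had a log2 difference of -0.26, and the others ran from 0.01 for Oca2 to 0.49 for Pmel. The sum leaves out the members. Of these, Mitf had a log2 difference of 1.13, Kit of 0.33, Tyr of 0.3, Ednrb of -0.02 and Dct of -0.07. The Tyrp1 probe sets ran from -0.25 to 0.15. The part of melanocyte RNA in the values of the members was not tested. In sorted cells read as a bulk, fewer cells of a type and less RNA per cell cannot be told apart.

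Mast cells also carry Kit. Of 11 mast cell markers 2 were tested and 0 passed (limma, with 0 at an unadjusted p below 0.05), and the sums were 513 to 657 against 447 to 593. The 2 were Tpsb2 (236 ± 63.9 against 200 ± 29.2) and Gata2 (182 ± 7.04 against 142 ± 31.2), above the control level on all 6 arrays. Gata2 was higher on every EGFP-high array than on any EGFP-negative one (adjusted p = 0.417, limma), as were 9.97% of all probe sets. Cpa3 and Cma1 were above the control level on 5 arrays each. At or below it on every array were 5 markers, Fcer1a and Ms4a2 among them. Endothelial cells are a source of Edn1, and the sums of their 7 markers were 137 to 225 against 110 to 176. Pecam1 was above the control level on all 6 arrays (84.4 ± 12.9 against 76.6 ± 29.1), and Kdr and Emcn were above it on 2 arrays each. Cdh5, Tek, Vwf and Tie1 were at or below it on every array. For 7 leukocyte markers on the array the sums were 548 to 749 against 393 to 598. Of these 2 were tested and 0 passed (limma, with 1 at an unadjusted p below 0.05). Cd3e, not tested, was higher on every EGFP-high array (27.7, 28.7 and 135.4 against 20.8, 19.5 and 21.7), but above the control level only in EGFP-high replicate 3. Cd3g (58.3 ± 10.1 against 23.7 ± 22.0) and H2-Aa, lower in EGFP-high cells (19.6 ± 4.71 against 36.7 ± 25.9), overlapped. The sums for 7 fibroblast and dermal papilla markers were 1096 to 1358 against 1215 to 1403. Among them Thy1 was lower in EGFP-high cells (54.3 ± 33.6 against 175 ± 28.0, adjusted p = 0.0382, limma), a call lost without 4 of the 6 arrays. Col1a2, a fibrillar collagen gene, entered the sum by its brighter probe set (708 ± 154 against 713 ± 21.6), while its other probe set was higher in EGFP-high cells (162 ± 80.7 against 14.3 ± 1.56, log2 difference 2.32, adjusted p = 0.00489, limma) and was above the control level on the 3 EGFP-high arrays and on 0 EGFP-negative ones. The sums for 5 Schwann cell markers were 765 to 936 against 851 to 1318, and Pou3f1 was lower (124 ± 38.1 against 238 ± 18.0, adjusted p = 0.0487, limma), a call lost without 5 of the 6.

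The genes with the pattern most like each tested member were found among 5627 other named genes, by the root mean square difference of log2 values centred on each gene's mean over the 6 arrays. For Kitl they were Hpgd, a prostaglandin dehydrogenase, at 0.128, Cebpd, a transcription factor, at 0.129 and Gdf10, a growth factor of the TGF-beta family, at 0.157, where the median gene was at 0.748. Hpgd read 134.0, 180.6 and 245.5 in EGFP-high replicates 1, 2 and 3 and 55.7, 62.2 and 63.8 in EGFP-negative replicates 1, 2 and 3, so that it shared with Kitl the highest value in EGFP-high replicate 3 and the lowest in EGFP-negative replicate 1. For Mitf they were Odf1, a sperm tail protein, at 0.141, Mrtfa, a coactivator of serum response factor, at 0.175 and Vsnl1, a neuronal calcium sensor, at 0.205, against a median of 0.632. Mrtfa read 281.8, 217.3 and 201.8 against 123.9, 120.0 and 115.3, with EGFP-high replicate 1 the highest as for Mitf. None of the 3 genes nearest to Kitl was among the 3 nearest to Mitf. With 5627 genes to draw from, this does not show that the 2 patterns differ. The nearest of so many genes also lie below the median by selection. Dct, whose values hardly varied, lay nearest to Nf2 (0.0364), Cops7b (0.0446) and Cox18 (0.048), and Edn1 to Map11 (0.0692), Rbm17 (0.0798) and Smarca5 (0.0827).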

How the data were processed

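RNA of 6 samples was measured on a mouse oligonucleotide array. The values the authors deposited are linear intensities of probe sets, and in each array they average 150.1 after trimming 2% at each end, the same in all 6. The sources used here do not give the software or background method. Sample groups and replicate numbers came from the titles. The members and the gene lists were chosen with earlier results of these data known.

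The 66 control rows were left out. Of 12422 probe sets, 10833 carried 1 gene symbol in the platform annotation, 396 several and 1193 none. Only the first were named, and 10817 matched a RefSeq gene table (GRCm38.p6) through Entrez identifiers. The analysis used log2(value + 19.3). The constant 19.3 equals the 25th percentile of the values above 0, and the scale understates changes of dim genes. Probe sets with a mean above the 40th percentile (7453) were tested with limma 3.58.1 in R 4.3.3 (lmFit, eBayes with trend), two-sided, with Benjamini-Hochberg adjustment at 0.05. The steps were tested on simulated data. The brightest probe set represented a gene in a list. Named were all members, per list each gene past the threshold (up to 8) and otherwise its brightest genes, up to 3 in all, and the 3 genes most like each tested member. Defining cell type markers are named as well.

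Arrays with the same number in their titles deviated together from their group means (r = 0.336, 0.368 and 0.305 across probe sets, all above the limit of 0.1). Arrays with different numbers had r of -0.0629 or below. Deviations from a group mean cancel within the group, so these negative values follow from the positive ones and are no separate evidence. On the titles and the correlation within numbers, same-numbered arrays were treated as pairs in the differences within numbers and in the block. The tests were fitted without the block, so their SEs and p-values leave the pairing out. Values with the block are given where a call changed or a count moved by over 1.5 times. The alternatives were other constants, filters, quantile normalization, the block, the mean of a gene's probe sets and each array left out.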

Additional observations from a re-analysis of the deposited data

How the results depend on the processing

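The members' log2 differences moved by less than the pooled SD within groups under the alternatives run, with these exceptions. With the constant 4 times as large Kitl came to 0.74, Mitf to 0.70 and Kit to 0.15, and with a constant 0.25 times as large Kit came to 0.48 and the dimmest Tyrp1 probe set to -0.64. These shifts follow from the constant, since dim values are drawn together by a larger one. The counts over all probe sets ran from 106 to 265 higher and from 85 to 234 lower when 1 array was left out. With the replicate block they were 382 and 396, and 241 and 184 when both arrays numbered 1 were left out, an alternative chosen after seeing the data. The block changed 1 call among the pathway lists, giving 2 epithelial and dermal factors lower (Adam10 beside Bmp4), and 1 among the marker lists, that of the keratinocyte gene Krt17 (adjusted p of 0.125 without and 0.00147 with the block, limma). It changed no other call of the lists. The count of those factors lower ran from 0 to 2 without 1 array. The melanosome genes higher ran from 0 to 1 and the Kit signalling genes higher from 1 to 2 without 1 array, the latter being 2 also with no filter and with the constant 4 times as large. The other counts of the 5 pathway lists stayed within 1.5 times their value, and for the marker lists lost calls are given by gene. Signal near the control level limits what can be read for Kit, Tyr, Tyrp1 and Ednrb, and leaving out 1 array took 2 Tyrp1 probe sets, Ednrb and the brighter Edn1 probe set across 0. For 1 of these Tyrp1 probe sets the range was -0.05 to 0.37 around 0.15, and for the dimmer Edn1 probe set it was -0.59 to -0.17 around -0.41, moves larger than the SD over their replicate numbers.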
